A study of Mus musculus with 16 samples.

Results

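The genes described here are 10 genes of glucose uptake and glycolysis, chosen by name: the glucose transporters Slc2a1 and Slc2a3, the hexokinases Hk1 and Hk2, and the later enzymes Pfkp, Aldoa, Pgk1, Eno1, Pkm and Ldha. They were chosen with earlier results of these data known. They are 10 of the 24170 genes and 17 of the 33702 RefSeq transcript rows of the expression table. Aldoa and Ldha have 3 rows each, Hk1, Pfkp and Pkm have 2 rows each, and the other 5 genes have 1 row each. RNA came from embryoid bodies, which are aggregates of differentiating cells, made from the R1 line of mouse embryonic stem cells. They were grown for 4 days in medium without Lif, the cytokine that keeps mouse stem cells undifferentiated, and harvested before (day 0) or after 4 days with 2 µM of retinoic acid (day 4). No embryoid bodies kept for the same 4 days without retinoic acid were used here, so the agent and the longer culture cannot be told apart. Each day has 2 biological replicates, and every RNA sample was split over 4 vials to which in vitro transcribed spike-in mix 1, 2 or 3, or only the ERCC control RNAs (mix 4), had been added. The 16 vials were sequenced as libraries of stranded total RNA.

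Glycolysis breaks glucose down to pyruvate in the cytosol and yields ATP without oxygen. Glucose enters through carriers of the Slc2a family, is trapped as glucose 6-phosphate by a hexokinase, committed by phosphofructokinase, cleaved by aldolase and oxidized on the way to pyruvate. Lactate dehydrogenase turns the pyruvate into lactate and thereby restores the NAD+ that the pathway consumes. Pluripotent stem cells and early embryos are known for a high glycolytic rate also in the presence of oxygen, and many of these genes are textbook targets of the hypoxia factor Hif1a and of Myc.

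Pkm encodes pyruvate kinase and can be spliced with either of a pair of mutually exclusive exons. The M2 exon is typical of embryonic and dividing cells, the M1 exon of muscle and brain. Both exons have 167 bases, lie on the plus strand of chromosome 9 and are given here from GRCm38, because only these bases and not the shared remainder of the mRNA separate the coding parts of NM_011099 (M2) and NM_001253883 (M1). The M2 exon is chr9:59675568-59675734 and the M1 exon is chr9:59675029-59675195. They are identical at 103 positions and differ at 64 positions, which are in capitals, and the GC content is 62.9% in the M2 exon and 56.3% in the M1 exon.
Pkm M2 exon: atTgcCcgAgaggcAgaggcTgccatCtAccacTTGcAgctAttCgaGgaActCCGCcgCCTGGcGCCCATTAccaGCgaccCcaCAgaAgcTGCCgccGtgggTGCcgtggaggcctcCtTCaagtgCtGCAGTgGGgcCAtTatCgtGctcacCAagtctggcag
Pkm M1 exon: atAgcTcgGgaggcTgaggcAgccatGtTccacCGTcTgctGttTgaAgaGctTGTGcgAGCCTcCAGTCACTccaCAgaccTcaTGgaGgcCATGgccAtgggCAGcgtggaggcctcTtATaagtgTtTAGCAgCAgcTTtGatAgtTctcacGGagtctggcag

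Promoters were searched for the core of the hypoxia response element, ACGTG or GCGTG, since several of these genes are known targets of the hypoxia factors. RefSeq windows of GRCm38.p6, from 250 bases before to 50 bases after the start, were matched by symbol for 9 of the 10 genes, with 16 windows in all, of which those of the same gene can overlap. ACGTG or its reverse complement CACGT was found in 8 of these 16 windows, from 7 genes, against 19.6% of all 32851 promoter windows. The E-box CACGTG, which Myc binds and which contains both of these motifs, was found in 1 of the 16 windows, that of Ldha, against 7.15% of all windows. The other core, GCGTG with its reverse complement CACGC, was found in 8 of the 16 windows, against 32.4% of all. Matches before the start were found in 6 genes and for each of them 1 is shown, read on the strand of the gene, with the match in capitals. They lie at chr4:119108699-119108723 for Slc2a1, chr6:82774492-82774516 for Hk2, chr7:126799366-126799390 for Aldoa, chrX:106186940-106186964 for Pgk1, chr9:59657142-59657166 for Pkm and chr7:46845650-46845674 for Ldha, with Hk2 and Aldoa on the minus strand. A match is a description of the sequence and not a binding site.
Slc2a1: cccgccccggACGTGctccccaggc
Hk2: tgagcacatcCACGTcactgtccgg
Aldoa: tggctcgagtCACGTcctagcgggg
Pgk1: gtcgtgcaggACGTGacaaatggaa
Pkm: ccgatccggtCACGTccgcgccgca
Ldha: gtcgcagcacACGTGgagccactct

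Values are FPKM, fragments scaled to transcript length and library size, so that levels of genes of different length can be compared. The sum of FPKM was 408168 to 616368 per library and 20510 to 22111 rows were above 0. The table holds no counts, so the counting error of single values is unknown. Within an RNA sample, the vials are splits of the same RNA, and their values were averaged before any test. In the second RNA sample of day 0, the mix 3 and mix 4 vials stood apart from the mix 1 and mix 2 vials. The slope of log2 FPKM on the GC content of the transcript, over 13894 transcripts, was -1.0 and -0.79 per 10% GC in these vials and 0.90 and 0.56 in the mix 1 and mix 2 vials of the same RNA. It was 1.09 to 1.2 in the first RNA sample of day 0 and -0.78 to -0.21 in the 8 libraries of day 4. A GC-rich transcript thus reads lower in all 8 libraries of day 4 and in these vials of day 0. The slope was positive in the other libraries of day 0, so the GC dependence and the day cannot be told apart. The change of each of the 10 genes and the count of each pathway list are therefore given also without these vials and after a GC correction, which divides the values of each library by the deviation that the library shows at that GC content, and which can remove real changes that go with GC content.

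**Figure D1:**
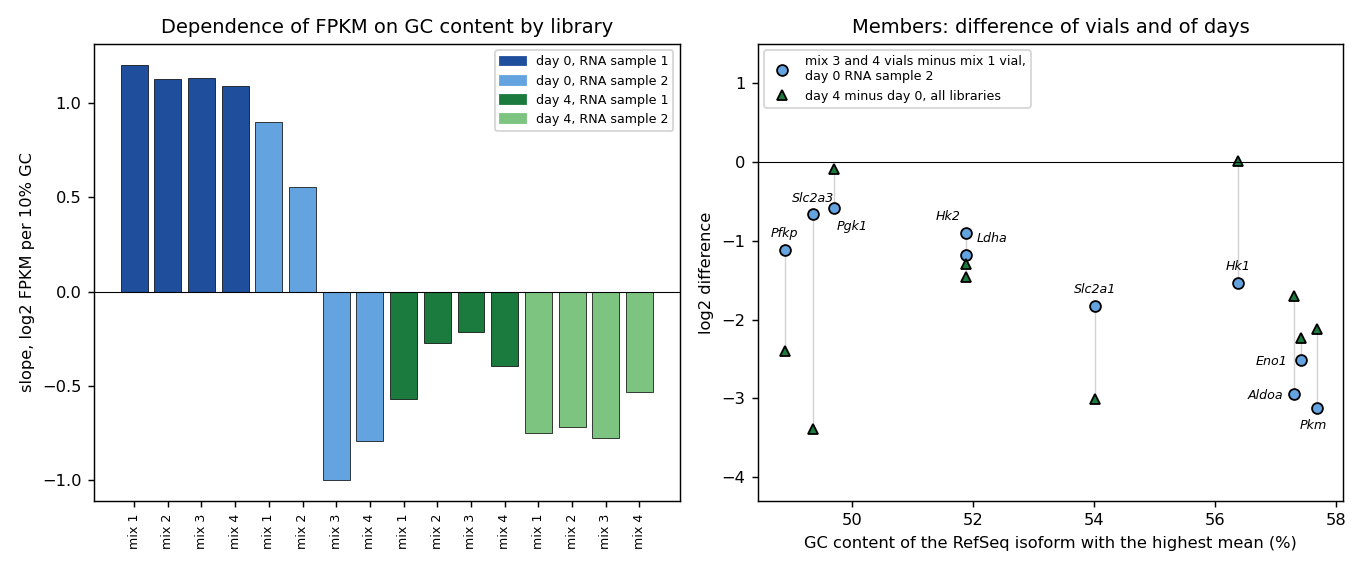
Left, slope of log2 FPKM on GC content (log2 per 10% GC) in each of the 16 libraries, coloured by RNA sample. Right, for each of the 10 genes, the log2 difference in summed FPKM between the mean of the mix 3 and 4 vials and the mix 1 vial of the second day 0 RNA (circles) and the fitted log2 change from day 0 to day 4 (triangles) against the GC content of the isoform with the highest mean. The GC-rich Pkm (57.7%) differed by -3.12 between vials of the same RNA and Pgk1 (49.7%) by -0.58.

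Summed over isoforms, 7 of the 10 genes were lower at day 4 (limma, adjusted p of at most 0.05): Slc2a1, Slc2a3, Hk2, Pfkp, Eno1, Pkm and Ldha. None was higher, and Hk1, Aldoa and Pgk1 did not pass the threshold. At an unadjusted p of 0.05, 8 genes passed, all of them lower at day 4, against 9593 of all 20497 genes tested. Of all genes tested, 30.5% passed the adjusted threshold, 14.5% with a lower value and 3281 genes with a higher value at day 4. The median log2 change was -1.90 for the 10 genes and -0.02 for all genes. Since the 10 genes were chosen with earlier results of these data known, these comparisons describe them and do not test an independent list. All 8 libraries of day 0 lay above all 8 libraries of day 4 for 5 of the genes, Slc2a1, Slc2a3, Hk2, Pfkp and Ldha, against 14.6% of all genes. Without the mix 3 and mix 4 vials of the second day 0 RNA, 8 genes were lower and 0 higher, and with the GC correction 8 were lower and 1, Hk1, was higher. Over all genes the share that passed rose as well, to 60.7% without these vials (33.6% lower) and 51.8% with the GC correction (24.3% lower). With the replicate as a block, 8 of the 10 genes were lower, since Aldoa passed as well, and the calls over all genes rose from 6253 to 10576 (51.6%). Without the first or the second RNA sample of day 4, the calls were lost, for the 10 genes and over all genes. The fit then takes its spread from the RNA samples of day 0 alone. The log2 changes were -3.43 and -3.36 for Slc2a3 and -2.34 and -1.89 for Pkm, against -3.39 and -2.11 with all RNA samples. Without the first RNA sample of day 0 the calls were fewer, also over all genes. With 1 RNA sample of either day left out, the log2 change of Slc2a3 was -3.61 to -3.18. That of Pkm was -2.75 to -1.47 and that of Hk1 -0.46 to 0.50. An exact permutation test of 2 against 2 RNA samples cannot go below p = 0.333, so the calls rest on the spread that limma shares over all genes. In bulk RNA, fewer cells of a type and less RNA per cell cannot be told apart.

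**Figure D2:**
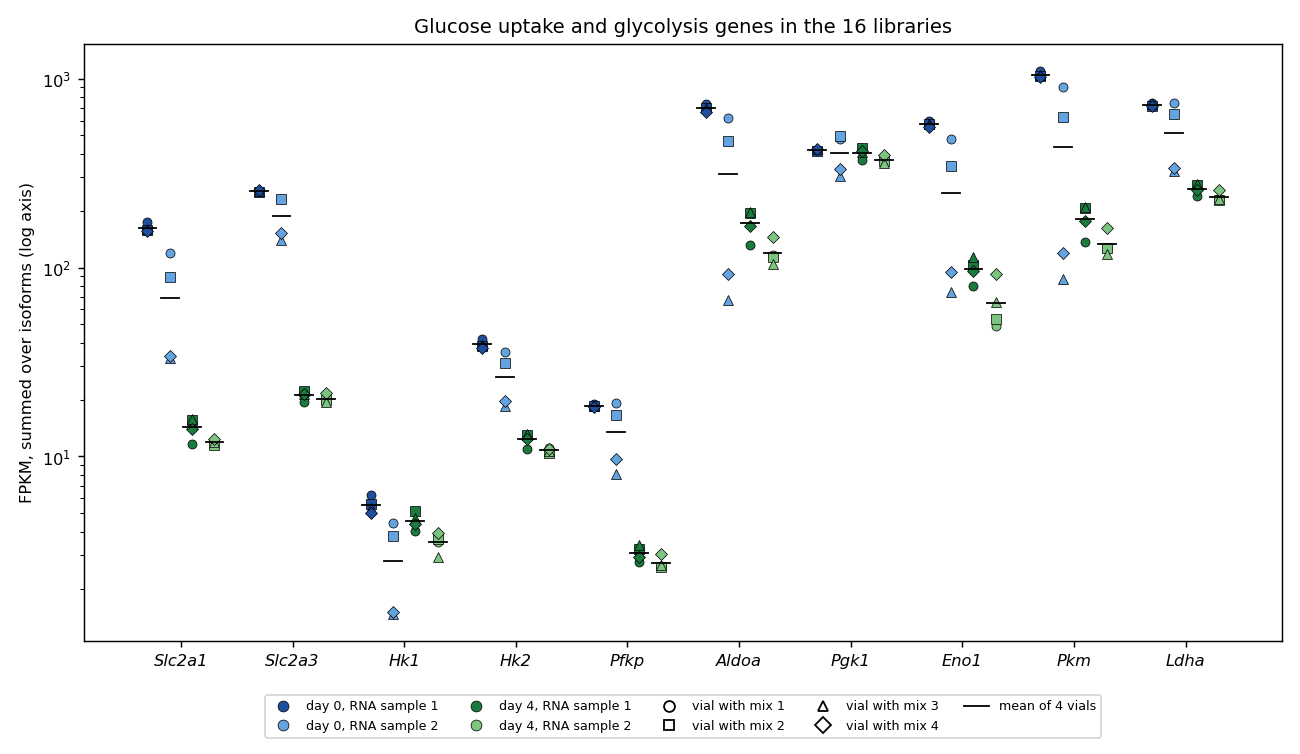
FPKM of the 10 genes, summed over isoforms, on a log axis in each of the 16 libraries; colours mark the RNA samples, symbols the spike-in mix of the vial, and bars the mean of the 4 vials. Slc2a3 lay at 140 to 256 FPKM in all day 0 libraries and at 19.5 to 22.3 in all day 4 libraries, whereas the light blue triangles and diamonds of Aldoa, Eno1 and Pkm lay at or below the level of the day 4 values.

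The glucose transporters showed the largest fitted decreases of the 10 genes, although with the GC correction Pfkp (-2.36) slightly passed Slc2a1 (-2.32). Slc2a3 (NM_011401, chr6:122727809-122802363), the high-affinity carrier Glut3, had 254 and 188 FPKM in the RNA samples of day 0 and 21.2 and 20.2 FPKM in those of day 4. The day 4 values were alike and the lowest day 0 library was still 6.26 times above the highest day 4 library. The means were 221 ± 46.2 and 20.7 ± 0.677 FPKM (SD, n = 2), a log2 change of -3.39 (SE 0.20, adjusted p = 0.00473, limma), or 10.51 times less. At 49.4% GC the correction left it at -3.37, and without the vials that stood apart it was -3.54.

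Slc2a1 (NM_011400, chr4:119108745-119137330), the basal carrier Glut1, had 162 and 69.1 FPKM in the day 0 samples and 14.2 and 11.96 FPKM in the day 4 samples. The first RNA sample of day 0 was even, with 156 to 174 FPKM, while the vials of the second ranged from 120 FPKM with mix 1 to 33.2 FPKM with mix 3. Even the lowest of these was 2.11 times above the highest day 4 library. The log2 change was -3.01 (SE 0.47, adjusted p = 0.0212), -3.31 without the vials that stood apart (adjusted p = 0.00240) and -2.32 with the GC correction (adjusted p = 0.00279).

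The hexokinases, which phosphorylate glucose in the first step, differed in level and in their change. Hk2 (NM_013820, chr6:82725025-82774454), the inducible enzyme bound to mitochondria, had 39.2 and 26.3 FPKM in the day 0 samples and 12.4 and 10.8 FPKM in the day 4 samples. The groups did not overlap, also over single vials, where day 0 began at 18.5 FPKM and day 4 ended at 13.2 FPKM. Its log2 change was -1.46 (SE 0.26, adjusted p = 0.0268), -1.64 without the vials that stood apart and -1.08 with the GC correction. Hk1 (chr10:62268855-62379920), the housekeeping enzyme, had 5.54 and 2.81 FPKM in the day 0 samples and 4.58 and 3.51 FPKM in the day 4 samples. These ranges overlapped, with a log2 change of 0.02 (95% interval -1.13 to 1.17, adjusted p = 0.973). At 56.4% GC the correction moved Hk1 to 1.0 (adjusted p = 0.00315), 2.00 times higher at day 4, whereas without the vials that stood apart it was -0.25 (adjusted p = 0.398), so no direction is given for this gene. The Hk1 isoform NM_010438 lay between 0 and 0.146 FPKM at day 0 and was listed at 0 in all 8 libraries of day 4. NM_001146100 held 97.7% to 100% of the gene in every library.

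Pfkp (chr13:6579874-6649060) encodes the platelet isoform of phosphofructokinase, the committed step of the pathway. It had 18.5 and 13.4 FPKM in the day 0 samples and 3.08 and 2.74 FPKM in the day 4 samples, with no overlap between the libraries of the days. The log2 change was -2.40 (SE 0.24, adjusted p = 0.0095), -2.61 without the vials that stood apart and, at 48.9% GC, -2.36 with the GC correction. Both isoforms were lower: NM_019703, with 15.1 and 2.68 FPKM as means of the days, by -2.43 (adjusted p = 0.0192), and NM_001291071, with 0.872 and 0.227 FPKM, by -1.57 (adjusted p = 0.0418).

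Aldoa (chr7:126795234-126800994), the aldolase that splits fructose 1,6-bisphosphate, had 698 and 311 FPKM in the day 0 samples and 173 and 120 FPKM in the day 4 samples. The second RNA sample of day 0 gave 617 and 467 FPKM with mix 1 and mix 2 but 67.6 and 92.4 FPKM with mix 3 and mix 4, which is below all day 4 libraries. The log2 change of -1.69 (95% interval -3.04 to -0.35) did not pass the threshold (SE 0.48, adjusted p = 0.0684). It passed without the vials that stood apart, at -2.10 (adjusted p = 0.00517), with the replicate block (adjusted p = 0.000266), and with the GC correction, at only -0.47 (adjusted p = 0.0463).

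Pgk1 (NM_008828, chrX:106187100-106203699), the kinase of the first step that yields ATP, was nearly level. It had 421 and 403 FPKM in the day 0 samples and 406 and 372 FPKM in the day 4 samples, and the ranges of the days overlapped. The log2 change was -0.08 with a 95% interval from -0.53 to 0.37 (adjusted p = 0.697), and its sign turned to 0.20 when the libraries were scaled to an equal sum of FPKM (TPM). It was -0.22 without the vials that stood apart (adjusted p = 0.179) and -0.06 with the GC correction (adjusted p = 0.577). A decrease as large as that of Ldha, -1.30, lies outside this interval. Also between the vials of the second day 0 RNA it moved least of the 10 genes, by -0.58 on the log2 scale.

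Eno1 (NM_023119, chr4:150236708-150248879), the enolase of non-muscle cells, had 574 and 249 FPKM in the day 0 samples and 98.4 and 65.1 FPKM in the day 4 samples. Single vials of the days overlapped, since the mix 3 and mix 4 vials of the second day 0 RNA were at 73.9 and 94.5 FPKM. The log2 change was -2.24 (SE 0.50, adjusted p = 0.0430), -2.60 without these vials (adjusted p = 0.00455) and -0.89 with the GC correction (adjusted p = 0.00464). The retrogene Eno1b, whose transcript was 99.5% identical to that of Eno1 over 1652 aligned bases, had a similar level, 488 and 99.7 FPKM as means of the days. How the reads were divided between these genes is therefore uncertain, but the sum of both, 900 ± 489 and 181 ± 33.4 FPKM, had a ratio of means of 4.96, and Eno1 alone one of 5.03.

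Pkm (chr9:59656576-59679372), the pyruvate kinase, had the highest mean of the 10 genes at day 0 before the GC correction. It had 1051 and 433 FPKM in the RNA samples of day 0, against 182 and 133 FPKM in those of day 4. It was also the gene that differed most between vials of the same RNA: in the second RNA sample of day 0 it had 898 FPKM with mix 1, 628 with mix 2, 86.6 with mix 3 and 120 with mix 4. The log2 change of -2.11 passed the threshold by little (SE 0.51, adjusted p = 0.0493). It was -2.52 without the mix 3 and mix 4 vials (adjusted p = 0.00359) and -0.70 with the GC correction (adjusted p = 0.0194), which is 5.74 and 1.62 times less, so the direction was the same and the size was not.

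Ldha (chr7:46842274-46855627), the muscle-type subunit of lactate dehydrogenase, had 728 and 513 FPKM in the day 0 samples and 261 and 236 FPKM in the day 4 samples. The lowest library of day 0, 324 FPKM, was above the highest of day 4, 278 FPKM. The log2 change was -1.30 (SE 0.24, adjusted p = 0.0302), -1.52 without the vials that stood apart (adjusted p = 0.00176) and -0.91 with the GC correction (adjusted p = 0.00269).

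**Figure D3:**
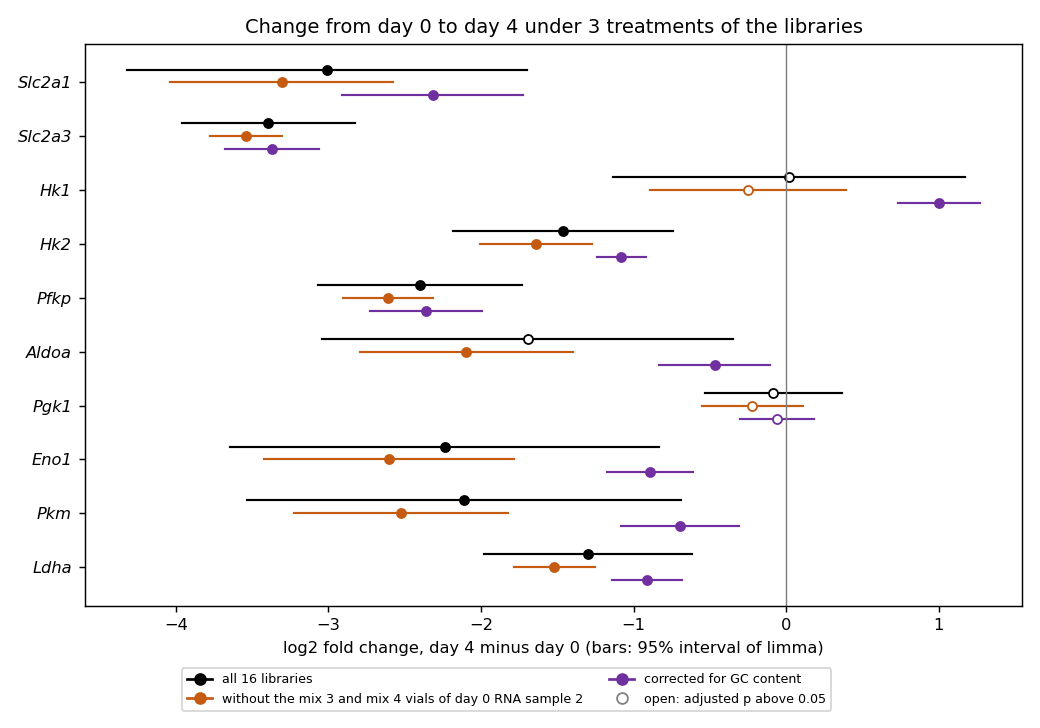
Log2 change of the 10 genes from day 0 to day 4 with its 95% interval from limma, with all 16 libraries (black), without the mix 3 and mix 4 vials of the second day 0 RNA (orange) and with the GC correction (purple); open circles mark an adjusted p above 0.05. Slc2a3 stayed between -3.54 and -3.37 in these fits, whereas Pkm moved from -2.52 to -0.70 and Hk1 from -0.25 to 1.0.

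The order of the levels in uncorrected FPKM also changed. At day 0 the order in FPKM was Pkm, Ldha, Aldoa, Pgk1, Eno1, Slc2a3, Slc2a1, Hk2, Pfkp and Hk1, from a mean of 742 to a mean of 4.17 FPKM. The RNA samples of neighbours in this order overlapped from Pkm down to Slc2a3 and did not overlap below. Genes further apart were separate in part: both RNA samples of Pkm and of Ldha lay above those of Pgk1, and those of Pkm, Ldha, Aldoa and Pgk1 lay above those of Slc2a3. At day 4, Pgk1 was highest with 389 FPKM, followed by Ldha with 249, Pkm with 158, Aldoa with 146, Eno1 with 81.7, Slc2a3 with 20.7, Slc2a1 with 13.1, Hk2 with 11.6, Hk1 with 4.04 and Pfkp with 2.91 FPKM. Here only Pkm and Aldoa, and Slc2a1 and Hk2, overlapped with their neighbour. With the GC correction, the day 0 samples had 517 and 538 FPKM for Ldha, 389 and 419 for Pgk1 and 407 and 324 for Pkm. Ldha then lay above Pkm, and Pkm and Pgk1 overlapped.

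At the level of isoforms, 7 of the 17 rows were lower at day 4 and 0 were higher, against 8.67% and 10.2% of all 28214 rows tested. Among the lower rows was the minor Ldha row NM_001136069, with 2.03 and 0.474 FPKM as means of the days (-1.87, limma adjusted p = 0.0420). It held at most 0.671% of the gene in any library. The minor Aldoa row NM_001177307, with 7.83 and 0.657 FPKM, did not pass (-3.14, limma adjusted p = 0.0706). At an unadjusted p of 0.05, 13 of the 17 rows passed, against 11450 of all rows. Eno1 and the main rows of Pkm and Ldha, NM_011099 and NM_010699, did not pass over all rows (adjusted p = 0.0602, 0.0661 and 0.0747). Without the mix 3 and mix 4 vials of the second day 0 RNA, 13 rows were lower and 1 higher, against 28.9% and 22.2% of all rows. With the replicate block 12 were lower, against 20.9% of all rows. Of the 12 isoform shares tested, limma called 0, with 5 at an unadjusted p of 0.05, and of all 12127 shares it also called 0 (0%), with 3357 at an unadjusted p of 0.05. Without those vials it called 2549 of all shares, and 1 lower and 2 higher among the 12.

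Aldoa had the most uneven isoforms. Its rows NM_007438 and NM_001177308 share 1300 bases of exon, 86.0% of the former and 89.0% of the latter. In the first RNA sample of day 0, NM_007438 held 95.4% of the gene with 632 to 704 FPKM, and at day 4 it held 7.23% and 5.17% in the RNA samples, with 3.91 to 17.1 FPKM. NM_001177308 was the other way round, with 16.9 to 24.7 FPKM in the first day 0 RNA and 101 to 179 FPKM in the day 4 libraries. In the second day 0 RNA the share of NM_007438 was 86.8% with mix 1, 38.3% with mix 2, 5.07% with mix 3 and 2.78% with mix 4. Splits of the same RNA thus ran over nearly the whole span between the days, with the higher shares in the vials with a positive GC slope, and the part of the library in this difference was not tested. NM_007438 was lower at day 4 by -5.28 on the log2 scale (SE 0.79, adjusted p = 0.0312), and by -3.63 with the GC correction (adjusted p = 0.0217). NM_001177308, at 1.41 (SE 1.0, adjusted p = 0.366), did not pass, and neither did the share of NM_007438, at -6.33 (SE 1.56, adjusted p = 0.137).

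Ldha showed a similar dependence on the vial. The non-coding row NR_102727 has no base of its own: all of its 1277 bases lie in the exons of NM_010699. It had at most 0.193 FPKM in 6 libraries of day 0 but 190 and 131 FPKM in the mix 3 and mix 4 vials of the second RNA sample, where it took 58.7% and 38.9% of the gene. At day 4 it had 20.8 to 46.4 FPKM in 4 libraries and was listed at 0 in the other 4. The sum over isoforms did not show this: within the second day 0 RNA it fell from 744 to 324 FPKM, while NM_010699 fell from 743 to 132 FPKM.

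For Pkm, the M2 form NM_011099 was the major isoform in all 16 libraries. Its share was 97.4% and 95.9% in the RNA samples of day 0 and 93.1% and 93.1% in those of day 4. The M1 form NM_001253883 held 2.62% and 4.06% at day 0 and 6.90% and 6.91% at day 4, with 4.50% to 9.49% in single libraries of day 4. The M1 share did not pass over all shares (log2 ratio change 1.14, SE 0.33, adjusted p = 0.160). Single libraries overlapped, as the mix 3 vial of the second day 0 RNA had an M1 share of 10.3%. In FPKM, the M1 form went from 22.6 ± 7.02 to 10.9 ± 2.35 (SD, n = 2; adjusted p = 0.0997), and the change of -1.03 on the log2 scale turned to 0.03 with the GC correction.

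**Figure D4:**
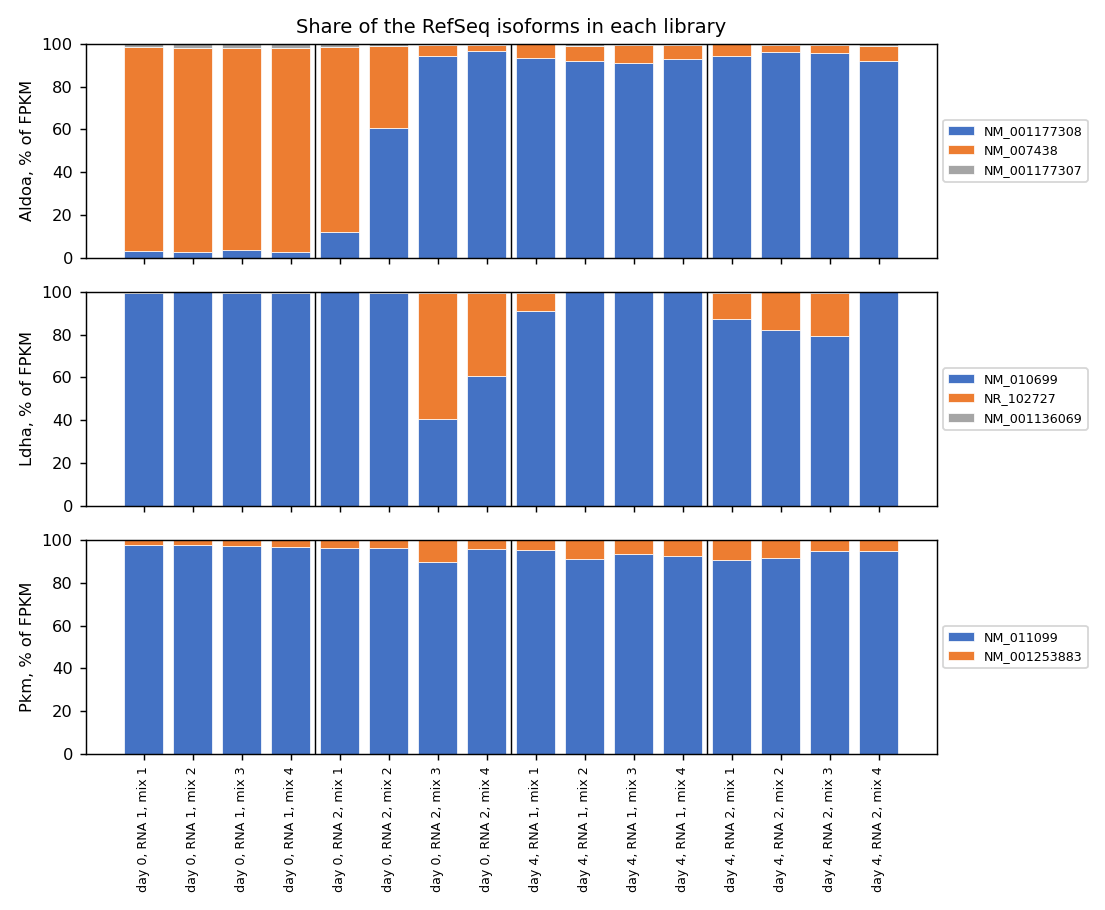
Share of each RefSeq isoform in the summed FPKM of Aldoa, Ldha and Pkm (%) in each of the 16 libraries; vertical lines separate the RNA samples. The Aldoa isoform NM_007438 went from 95.4% in the first day 0 RNA to 2.78% in the mix 4 vial of the second day 0 RNA, and the Pkm M2 form NM_011099 stayed between 89.7% and 97.8%.

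Other genes of the pathway were examined by lists of gene names. Their counts are to be read against the shares over all genes, 14.5% lower, 16.01% higher and 30.5% in either direction. The share in either direction rose to 60.7% without the mix 3 and mix 4 vials of the second day 0 RNA (33.6% lower, 27.1% higher). It was 51.8% with the GC correction (24.3% lower, 27.5% higher) and 51.6% with the replicate block (29.1% lower, 22.5% higher). Of 16 further glycolysis enzymes, 3 (18.8%) were lower, near the share over all genes, 0 higher and 13 did not pass, with a median log2 change of -0.41. The lower ones were the muscle phosphoglycerate mutase Pgam2 (-4.85, from 3.67 to 0.0176 FPKM, adjusted p = 0.0110), the muscle enolase Eno3 (-2.16, adjusted p = 0.0348) and Eno1b (-2.18, adjusted p = 0.0344). Gapdh, often used as a reference gene, had 1181 and 299 FPKM as means of the days (-1.89, adjusted p = 0.0655), and the mutase Pgam1 had 467 and 351 FPKM (-0.41, adjusted p = 0.170). Both passed without those vials, at -2.28 and -0.50, and Gapdh also with the GC correction, at -0.69 (adjusted p = 0.0460). Within the second day 0 RNA, Gapdh also differed 7.15 times between the mix 1 vial and the mean of the mix 3 and mix 4 vials. With the GC correction, 5 enzymes of the list were lower and 3 higher, and its median was 0.14. Without those vials, 8 were lower and 0 higher, and with the block 7 and 1.

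Of 11 other sugar carriers, 1 was higher, 3 (27.3%) lower and 7 did not pass. With the GC correction 5 were higher and 2 lower, with the block 3 and 5, and without the vials that stood apart 4 and 5. The 3 lower carriers of the main fit were all below 1 FPKM. Slc2a5 went from 0.109 to 0.0296 FPKM, Slc2a6 from 0.373 to 0.0164 and Slc5a2 from 0.0298 to 0.007. The myo-inositol carrier Slc2a13 was higher by 2.98 (adjusted p = 0.00757), from 0.115 to 1.59 FPKM. The insulin-responsive Slc2a4 had 0.786 and 2.50 FPKM (1.60, adjusted p = 0.0668). It passed without those vials, at 1.30 (adjusted p = 0.0191), with the GC correction, at 2.59 (adjusted p = 0.00110), and with the block (adjusted p = 0.00269). Slc2a8 had 3.21 and 0.860 FPKM (-1.63, adjusted p = 0.133), -2.04 without those vials (adjusted p = 0.0169) and 0.08 with the GC correction.

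Among 19 genes of lactate and pyruvate handling, 5 (26.3%) were higher, 1 (5.26%) lower and 13 did not pass, with a median of 0.12. Without the vials that stood apart and with the GC correction alike, 7 were higher and 4 lower, and with the block 6 and 2. The lactate exporter Slc16a1 was lower by -2.02 (adjusted p = 0.00743), from 93.6 to 22.9 FPKM. Both subunits of the mitochondrial pyruvate carrier were higher, Mpc1 by 2.07 (adjusted p = 0.00569), from 14.8 to 62.6 FPKM, and Mpc2 by 1.88 (adjusted p = 0.0235), from 22.5 to 80.2 FPKM. The kinase Pdk1, which inhibits pyruvate dehydrogenase, was higher by 1.94 (adjusted p = 0.00638), from 10.3 to 39.8 FPKM. These 4 genes kept their direction with the GC correction, at -2.51, 1.75, 2.25 and 1.80. Bsg, the chaperone of the lactate exporters, had 163 and 125 FPKM (-0.35, adjusted p = 0.414) and Dld, a subunit of pyruvate dehydrogenase, 91.5 and 114 FPKM (0.34, adjusted p = 0.378). Both passed without those vials, at -0.59 and 0.63, and turned sign with the GC correction, at 0.62 and -0.18.

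Of 11 genes that control phosphofructokinase or run gluconeogenesis, 3 (27.3%) were lower, 1 was higher and 7 did not pass. With the GC correction 4 were lower and 2 higher, with the block 6 and 1, and without the vials that stood apart 7 and 3. The higher gene of the main fit, Pck1, had a mean of 0 FPKM at day 0 and 0.0619 FPKM at day 4. Tigar, a phosphatase that lowers fructose 2,6-bisphosphate, was lower by -1.91 (adjusted p = 0.0132), and Fbp1, the fructose bisphosphatase, by -2.28 (adjusted p = 0.0183), from 1.24 to 0.168 FPKM. Pfkfb3 and G6pc3 did not pass (0.59, adjusted p = 0.0793, and -1.27, adjusted p = 0.138). Both passed without those vials, at 0.49 and -1.68, and with the GC correction they were at 0.72 (adjusted p = 0.00911) and 0.21 (adjusted p = 0.308). Of 7 enzymes of the pentose phosphate pathway, which branches off at glucose 6-phosphate, 3 (42.9%) were lower and 0 higher. These calls passed by little: 0 of the 7 passed with a pseudocount of 1, with the mean of log2 values, with no variance trend, with the mix 4 vials or without the first day 0 RNA. Without the vials that stood apart or with the block 5 were lower and 0 higher, and with the GC correction 4 and 1. Transketolase Tkt was lower by -2.68 (adjusted p = 0.0423), from 141 to 19.6 FPKM, Pgd by -1.74 (adjusted p = 0.0402) and G6pdx, the entry enzyme, by -1.13 (adjusted p = 0.0443). Taldo1 had 77.0 and 19.5 FPKM (-1.83, adjusted p = 0.0747, and -2.21 without those vials, adjusted p = 0.00665) and Rpe 34.2 and 35.0 FPKM (0.06, adjusted p = 0.870), which the GC correction put at -0.67 (adjusted p = 0.00401).

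Of 19 hypoxia factors and targets, 11 (57.9%) were higher, 1 lower and 7 did not pass, with a median log2 change of 1.09. The list leaves out the 10 genes of uptake and glycolysis, several of which are known targets too, so the medians are not compared. Adm, the vasodilator adrenomedullin, was higher by 3.52 (adjusted p = 0.00955), from 0.423 to 5.73 FPKM. The mitophagy gene Bnip3 was higher by 3.08 (adjusted p = 0.0129), from 16.1 to 131 FPKM, Ndrg1 by 1.96 (adjusted p = 0.00979) and the prolyl hydroxylase Egln1, which marks Hif1a for degradation, by 1.76 (adjusted p = 0.00750). Hif1a itself had 97.9 and 125 FPKM (0.38, adjusted p = 0.312) and Ddit4 26.8 and 32.5 FPKM (0.31, adjusted p = 0.426). Hif1a passed without the vials that stood apart, at 0.60 (adjusted p = 0.0117), and was at -0.16 with the GC correction, whereas Ddit4 passed with the GC correction, at 1.52 (adjusted p = 0.0431), and was at 0.10 without those vials. With the GC correction 13 were higher and 2 lower, and without those vials or with the block 12 were higher and 3 lower. The mRNA of Hif1a does not measure the protein, which is set by degradation.

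Of 12 regulators of glycolysis around Myc, Lin28 and the splicing factors of Pkm, 5 (41.7%) were lower, 1 higher and 6 did not pass. Without the vials that stood apart, with the GC correction and with the block, 7 were lower and 2 higher. Lin28a, an RNA-binding protein of stem cells, was lower by -6.67 (adjusted p = 0.00460), from 143 to 1.32 FPKM, and Lin28b by -1.92 (adjusted p = 0.0166). Myc was lower by -4.32 (adjusted p = 0.00858), from 27.4 to 1.21 FPKM, and in the second day 0 RNA the mix 1 vial was 2.38 times above the mean of the mix 3 and mix 4 vials. Ptbp2, the neural relative of the splicing repressor Ptbp1, was higher by 1.46 (adjusted p = 0.0434), from 31.0 to 82.6 FPKM. Ptbp1 itself had 121 and 34.6 FPKM (-1.70, adjusted p = 0.0582). It passed without the vials that stood apart, at -1.99 (adjusted p = 0.00574), with the GC correction, at -0.96 (adjusted p = 0.0128), and with the block (adjusted p = 0.000312). Hnrnpa1 had 414 and 527 FPKM (0.34, adjusted p = 0.243) and Hnrnpa2b1 328 and 299 FPKM (-0.12, adjusted p = 0.662, and -0.46 with the GC correction, adjusted p = 0.0148).

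Markers of the cell types the embryoid bodies can hold also changed between the days, in both directions. The counts of all marker lists are to be read against the same shares over all genes, 14.5% lower and 16.01% higher. These shares were larger without the vials that stood apart (33.6% lower, 27.1% higher) and with the GC correction (24.3% lower, 27.5% higher). The samples are labelled as embryonic stem cells. The summed level of 10 pluripotency markers was 119 to 226 FPKM in the libraries of day 0 and 9.58 to 15.9 FPKM in those of day 4, with 9 of 10 lower and none of them at 0 in all libraries of a day. Pou5f1 was lower by -5.91 and Tdgf1 by -6.71. The summed level of 10 mesoderm markers was 194 to 270 FPKM at day 0 and 89.8 to 120 FPKM at day 4, with 6 lower and 0 higher. Among those not past the threshold, Hbb-bh1 (1.07, adjusted p = 0.0564) and Pecam1 (0.27, adjusted p = 0.516) had positive changes. Col1a1 (-2.54, adjusted p = 0.0561) and Cdh5 (-0.38, adjusted p = 0.371) had negative ones. The mean log2 level of Hbb-bh1 was 5.05 at day 0 and 6.12 at day 4. Without the vials that stood apart and with the GC correction, 9 and 9 of the pluripotency markers and 8 and 7 of the mesoderm markers were lower. Brachyury, T, was at 67.0 FPKM at day 0 and at 0.0190 FPKM at day 4, Eomes at 15.4 and 0.0741 FPKM, and Mesp1 was listed at 0 in all day 4 libraries. The day 0 samples thus held the RNA of stem cell genes together with that of primitive streak genes.

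The summed level of 8 endoderm markers was 15.6 to 22.2 FPKM at day 0 and 76.5 to 79.7 FPKM at day 4, with 4 higher, 0 lower and Gata6 higher by 3.08. That of 10 neural markers was 31.5 to 58.5 and 48.0 to 50.8 FPKM, with 4 higher, among them Dcx (4.42) and Hoxb4 (3.41), and 4 lower, among them Tubb3 (-3.66). The 5 skeletal muscle markers summed to 0.521 to 9.18 FPKM at day 0 and to at most 0.0660 FPKM at day 4, with Acta1 lower by -5.33, 4 not past the threshold and Ckm listed at 0 in all day 4 libraries. Without the vials that stood apart, 5 endoderm markers were higher and 2 lower, 5 neural markers higher and 4 lower and 3 muscle markers lower, and with the GC correction these counts were 4, 2, 5, 3 and 1. The part of these cell types in the changes of the glycolysis genes was not tested.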

How the data were processed

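Total RNA libraries (TruSeq stranded with RiboZero Gold, paired-end) of 16 vials were analysed. The authors mapped reads with Bowtie2 2.1.0 to RefSeq (mm10) and spike-in transcripts, estimated isoforms with RSEM 1.2.18 and deposited FPKM per transcript after TMM scaling of the libraries. Of 33750 rows, 48 spike-in rows were left out, and 0 columns had no sample. Symbols were found for 99.2% and GC content for 97.4% of the RefSeq rows (GRCm38 annotation of RefSeq and GENCODE). Vials were assigned to RNA samples by the table of samples of the study.

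The mean FPKM of the 4 vials of each RNA sample was taken as log2(FPKM + 0.1) and compared with limma 3.58.1 (lmFit, eBayes with trend; R 4.3.3), 2 against 2 RNA samples, with Benjamini-Hochberg adjustment over all genes (summed isoforms), all rows or all isoform shares, and an adjusted p of at most 0.05. Fold changes are on this scale, which understates those of low genes. The pseudocount is the offset that the study applied to RPKM values before its ANOVA. Shares were fitted as log2 of an isoform over the other isoforms of its gene. The GC correction uses medians in 20 bins of transcripts with a mean of at least 1 FPKM. Tables and figures were made in Python (version 3.11.15) with pandas 2.3.3, numpy 2.4.6, matplotlib 3.10.9 and scipy 1.17.1. The fits were tested on simulated data with independent noise in each row. The simulation held no shift shared by transcripts of like GC content, so it does not show that the calls hold under such a shift. The depth behind single values is unknown, since no counts were used. The study's mapping statistics list the highest share of intronic reads in the mix 3 and mix 4 vials of the second day 0 RNA. Its methods name the mix 1 vial of the first day 4 RNA as an outlier in ribosomal RNA content. The part of these traits in the values was not tested.

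The study repeated the procedure for its 2 biological replicates, and replicates of the same number are taken here to share a repeat. The differences between replicates correlated between the days with r = 0.541 over 14095 transcripts, and the replicate was also fitted as a block. The GC slope was mostly higher in replicate 1, with 1.09 to 1.2 against -1.0 to 0.90 at day 0. At day 4 it was -0.57 to -0.21 against -0.78 to -0.53. The part of this GC dependence in the correlation was not tested, so the correlation does not establish a shared repeat. The alternatives, 19 in all, were other pseudocounts, a filter, scalings, variance model, vials, the block, each RNA sample left out and GC corrections, of which 3 were added after seeing the data. The members and lists were chosen with earlier results of these data known. Named from each list are up to 4 genes past the threshold with the largest change and at least 1 FPKM in a day, and the 2 others with the highest mean. Ptbp1, Slc2a5, Slc2a6, Slc5a2 and Pck1 are named outside this rule. From the marker lists only some genes past the threshold are named, chosen after their values were seen, and for mesoderm also those not past it. Assemblies and other quantifications were not analysed here.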

Additional observations from a re-analysis of the deposited data

Results flagged for a closer look

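The Aldoa isoform NM_001177308 had 283.9 FPKM in the mix 2 vial of the second day 0 RNA, far above the other libraries of day 0, whose median over all 8 libraries was 44.2 FPKM. The gap to the next library was 0.728 of the whole range. This vial also had an intermediate share of NM_007438, 38.3%, and an intermediate GC slope, 0.56. It was the only library singled out in this way among 44 groups of 8 libraries. Chance alone singles out about 1 in 20 groups of 8 independent values. That rate does not apply here, because vials of the same RNA are not independent and the groups of a gene and its isoforms share values. The cause was not tested.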

How the results depend on the processing

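Slc2a1, Slc2a3, Hk2, Pfkp, Aldoa, Eno1, Pkm and Ldha were lower at day 4 in all 19 alternatives, past the threshold in 16, 17, 15, 16, 8, 12, 12 and 15 of them, and Pgk1 in 0. Their lowest and highest adjusted p over the alternatives were 2.3e-05 and 0.266 for Slc2a1, 4.88e-06 and 0.115 for Slc2a3, and 0.000125 and 0.705 for Pkm. Over all single genes and isoforms, 1689 values were computed. Scaling to TPM moved the median change of all genes from -0.02 to 0.09, Pgk1 and its row NM_008828 to 0.20 and Hnrnpa2b1 to 0.13.

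Calls over all genes (6253), all rows (5321) and all shares (0) became 12432, 14417 and 2549 without the mix 3 and mix 4 vials of the second day 0 RNA; 11602, 12823 and 1608 with the mix 1 and mix 2 vials; 11595, 12473 and 1964 with the mix 1 vials; and 1411 and 298, for genes and rows, with the mix 4 vials. With the replicate block they became 10576 and 10051, with the GC correction 10615 and 10152, with both 11667 and 10617, and with the GC correction and without those vials 13051, 14682 and 2520. A pseudocount of 1 gave 910 shares. Leaving out 1 RNA sample gave 0 to 9224 genes, 0 to 7795 rows and 0 shares.

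Of the members, 7 genes were lower; 1 with the mix 4 vials, 0 to 8 with an RNA sample left out, and 1 higher (Hk1) with each GC correction. Of the rows, 7 were lower; 13 without those vials, 12 with the mix 1 and mix 2 vials, the block, or the GC correction without those vials, 11 with GC correction and block, 2 with the mean of log2 values, 0 with the mix 4 vials and 0 to 8 with an RNA sample left out. Higher were 1 row without those vials, with the mix 1 and mix 2 vials, the mix 1 vials, the GC correction or GC correction and block, and 2 with the GC correction without those vials. Of the shares, 1 was lower and 2 higher without those vials, 2 and 3 with the GC correction in addition, 2 and 2 with the mix 1 vials, and 1 was higher with the mix 1 and mix 2 vials.

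Reversed signs were as follows. Hk1 (NM_001146100) was at -0.25 (-0.23) without those vials, -0.28 (-0.26) with the mix 1 and mix 2 vials, -0.47 (-0.44) with the mix 1 vials and -0.46 to 0.50 (-0.44 to 0.51) with an RNA sample left out. With the GC correction, alone or with the block, Hif1a was at -0.157, Pgam1 at 0.0710, NM_001253883 at 0.0282, Bsg at 0.618, Dld at -0.182, G6pc3 at 0.209, Rpe at -0.674 and Slc2a8 at 0.0808. Also without those vials, Hif1a was at -0.152, Pgam1 at 0.224, Bsg at 0.767, Dld at -0.129, G6pc3 at 0.0594, Rpe at -0.697 and Hnrnpa1 at -0.216. Hnrnpa2b1 was at 0.0718 without those vials, 0.0960 with the mix 1 and mix 2 vials and 0.0908 with the mix 1 vials. With the mix 4 vials Pgk1 was at 0.101, Bsg at 0.00500, Rpe at -0.141, NR_102727 at -5.18 and the shares of NM_010699, NR_102727, NM_019703 and NM_001291071 at 4.58, -4.59, 0.10 and -0.10. The share of NM_001136069 was at 0.26 with a pseudocount of 1 and 0.00139 with the mix 1 vials. Ddit4 was at -0.147 and Hnrnpa1 at -0.0304 with the mix 1 vials. With an RNA sample left out, Ddit4 ranged from -0.0220 to 0.65, Bsg from -0.703 to 0.00478, Rpe from -0.240 to 0.356, Hnrnpa2b1 from -0.322 to 0.0798, NR_102727 from -2.70 to 6.47, its share from -1.79 to 8.13 and that of NM_010699 from -4.02 to 1.75. Here the lone sample is assumed to vary like the others. The causes were not tested. The block changed the call of Aldoa and of no other member gene.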
